A study of Homo sapiens with 6 samples.

Results

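The 34 genes described here encode proteins that act in G2 phase, mitosis and cytokinesis, the steps by which a cell condenses and segregates its chromosomes and then divides. They were chosen by name, as the kinases, spindle, kinetochore and cleavage proteins that mark dividing cells, with earlier results of these data known. All 34 were found among the 59653 gene symbols of the count table and among the 17592 genes tested. The cells were PA1, an established human ovarian teratocarcinoma line labelled as wildtype. One group was transfected with a negative control small interfering RNA (siRNA, a short duplex that directs degradation of matching mRNA) and the other with siRNA against the transcription factor SOX2. The design names 2 SOX2 siRNAs and does not say whether they were pooled. In both groups the cells stood in adherent culture for 24 h after transfection and then grew for 72 h on plates coated with poly-HEMA, to which cells do not attach. Each group held 3 mRNA sequencing libraries, numbered 1 to 3. The labels do not say that the libraries came from separate cultures, so the p-values measure the spread between these libraries, which may be technical.

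Entry into mitosis is driven by CDK1 bound to B-type cyclins, with PLK1 and the Aurora kinases acting on centrosomes, kinetochores and the spindle. The spindle checkpoint holds back the anaphase-promoting complex (APC/C), a ubiquitin ligase, until every kinetochore is attached to microtubules, and the cell is then cleaved at the central spindle by a contractile ring. Most of these genes share a transcription programme: they are repressed in resting cells by the DREAM complex and switched on in G2 by the MuvB core with B-MYB (MYBL2) and FOXM1, through a promoter element named the cell-cycle genes homology region (CHR), and by NF-Y through CCAAT boxes. In bulk RNA, more cells in G2 and mitosis and more of an mRNA in each such cell cannot be told apart.

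RefSeq (GRCh38.p14) gave promoter sequence for 29 of the 34 genes, 32 promoters in all (AURKA, BIRC5, TTK, TPX2 and UBE2C were not matched), each from 250 bases before to 50 after the annotated start. CCAAT, or ATTGG on the other strand, was found in 25 of the 32 (78.1%), against 34.6% of all 35116 promoters of the same length. A CHR core, searched as TTTGAA or TTCGAA on both strands, also occurred in 25 of the 32 (78.1%), against 16.4% of all promoters. Both were present in 20 of the 32 (62.5%), against 6.4% of all promoters. Of 38 promoters of DNA replication genes, 27 held CCAAT (71.1%) and 2 held a CHR core (5.3%). Such matches are descriptions of letters and not measured binding sites. CCAAT was in 7 of 9 promoters of genes that rose and 18 of 23 of genes that did not pass the test, and the CHR core likewise in 7 of 9 and 18 of 23. Both together were in 5 of 9 (55.6%) and 15 of 23 (65.2%), and within the 200 bases nearest the start in 3 of 9 (33.3%) and 14 of 23 (60.9%); these differences were not tested. Printed are the 120 bases before the start for genes with exactly 1 listed promoter: among these, the 5 with the smallest p of those that rose (MAD2L1, ANLN, TOP2A, NDC80, PLK1) and the 3 with the lowest fold change (ASPM, CENPE, CENPF), to show examples from both ends. BIRC5, with a smaller p than NDC80 and PLK1, was passed over for want of a match, and ECT2, second lowest in fold change, because it has 2 listed promoters. In the sequences, capitals mark CCAAT boxes and CHR cores on either strand.
MAD2L1 (chr4:120066849-120066968, minus strand): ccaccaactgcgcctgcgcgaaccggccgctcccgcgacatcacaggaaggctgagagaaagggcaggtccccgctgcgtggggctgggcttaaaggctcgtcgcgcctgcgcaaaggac
ANLN (chr7:36389742-36389861, plus strand): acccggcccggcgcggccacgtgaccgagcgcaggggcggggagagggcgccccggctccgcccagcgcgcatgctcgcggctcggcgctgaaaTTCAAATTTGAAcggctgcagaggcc
TOP2A (chr17:40417897-40418016, minus strand): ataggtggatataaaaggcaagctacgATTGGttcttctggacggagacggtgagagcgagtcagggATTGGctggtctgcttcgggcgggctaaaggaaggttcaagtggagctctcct
NDC80 (chr18:2571437-2571556, plus strand): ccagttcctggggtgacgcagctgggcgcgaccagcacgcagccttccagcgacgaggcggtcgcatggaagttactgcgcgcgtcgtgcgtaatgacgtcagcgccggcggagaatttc
PLK1 (chr16:23678769-23678888, plus strand): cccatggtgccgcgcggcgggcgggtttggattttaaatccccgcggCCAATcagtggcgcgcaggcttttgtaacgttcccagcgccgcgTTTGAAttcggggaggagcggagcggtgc
ASPM (chr1:197146670-197146789, minus strand): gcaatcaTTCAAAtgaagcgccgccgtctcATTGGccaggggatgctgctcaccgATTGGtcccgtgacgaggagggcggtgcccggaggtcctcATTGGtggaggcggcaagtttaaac
CENPE (chr4:103198344-103198463, minus strand): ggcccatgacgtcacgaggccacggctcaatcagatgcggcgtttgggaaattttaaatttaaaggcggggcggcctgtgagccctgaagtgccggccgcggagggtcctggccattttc
CENPF (chr1:214603075-214603194, plus strand): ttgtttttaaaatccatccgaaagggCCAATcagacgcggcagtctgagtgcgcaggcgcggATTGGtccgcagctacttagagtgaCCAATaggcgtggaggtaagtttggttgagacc

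PLK1 held a CCAAT box upstream of a CHR core, ANLN held 2 adjoining CHR cores on opposite strands, and TOP2A held 2 CCAAT boxes. ASPM and CENPF each held 3 CCAAT boxes in this stretch. MAD2L1, NDC80 and CENPE held none of the letters searched within these 120 bases, and CENPE held none in the whole window.

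The libraries held 25152313 to 32753184 counts in total. The 34 genes took between 611 and 24729 counts each in every library. Counting error weighs most on CENPA, the least counted, whose log2 fold change had the largest SE of the 34 (0.066). Levels are given as CPM, a gene's count scaled to the same total in every library. SOX2, the targeted gene, had 255 ± 10.1 CPM with control siRNA and 52.5 ± 2.21 CPM with SOX2 siRNA (SD, n = 3), a log2 fold change of -2.28 (adjusted p = 5.97e-16 by edgeR's quasi-likelihood test). Of 10 markers linked to an embryonal line, 8 were above 1 CPM in every library, with TDGF1 at 0.104 CPM or less. Their summed level ran from 3040 to 3092 CPM with control siRNA and from 2821 to 2885 CPM with SOX2 siRNA. Without SOX2 itself the sums overlapped, at 2775 to 2836 and 2769 to 2834 CPM, with LIN28A at 703 to 709 CPM in control and 1135 to 1153 CPM after SOX2 siRNA and PODXL at 1297 to 1324 and 653 to 699 CPM. Of the markers of other cells, 1 of 5 for leukocytes (LYZ, with PTPRC at 0.100 CPM or less), 3 of 3 for endothelium, 2 of 4 for fibroblasts (PDGFRB and COL1A1, with DCN at 0.124 CPM or less) and 1 of 4 for ovarian surface and tubal epithelium (WT1) were above 1 CPM in every library, and none was at 0 in all of them. Summed fibroblast markers moved with the groups, from 283 to 330 CPM in control to 449 to 495 CPM after SOX2 siRNA. Summed endothelial markers moved the other way, from 74.4 to 77.4 CPM to 49.9 to 51.9 CPM. Summed leukocyte markers overlapped between groups (3.21 to 15.2 and 1.98 to 18.4 CPM), as did the epithelial ones (8.69 to 11.5 and 6.98 to 9.10 CPM). LYZ differed widely between libraries of the same group, from 2.11 to 14.6 CPM in control and from 1.48 to 17.9 CPM after SOX2 siRNA. WT1 alone did not overlap, at 7.86 to 8.29 CPM in control and 6.45 to 6.55 CPM after SOX2 siRNA. The part of other cells in the results was not tested.

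Of the 34 mitosis and cytokinesis genes, 12 rose, none fell and 22 did not pass the test (edgeR's quasi-likelihood test, Benjamini-Hochberg adjustment across the 17592 genes, threshold 0.05). The 12 that rose were MAD2L1, ANLN, NDC80, AURKA, BIRC5, CCNB1, PLK1, UBE2C, TOP2A, CCNA2, MKI67 and NUSAP1, with increases in mean CPM from 6.85% for NUSAP1 to 18.5% for MAD2L1. The median log2 fold change of the 34 was 0.097, against -0.00085 over all tested genes, and 30 of the 34 values were above 0.

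The share of the 34 that was called, 35.3%, is to be read against 28.2% of all tested genes and 37.0% of the 7350 genes at least as abundant as the least abundant member, so the number of calls is near the background. By direction, 12 higher calls compare with a background of 14.8% of all tested genes and 20.6% of the abundant ones, and 0 lower calls with 13.4% and 16.4%. At an unadjusted p under 0.05 the 34 held 18 genes; 17 of these were higher, and ASPM was lower. DESeq2 gave 11 higher and 0 lower, and limma-voom 12 and 0. The 3 control and 3 SOX2 siRNA libraries did not overlap in CPM for 16 of the 34, all higher in SOX2 siRNA; over all tested genes this held for 41.8%, with 21.5% higher and 20.3% lower. The 95% intervals of the 34 fold changes ran from -0.17 at the lowest bound (ASPM) to 0.34 at the highest (MAD2L1) on the log2 scale, and none reached a 1.5-fold change (0.585).

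**Figure D1:**
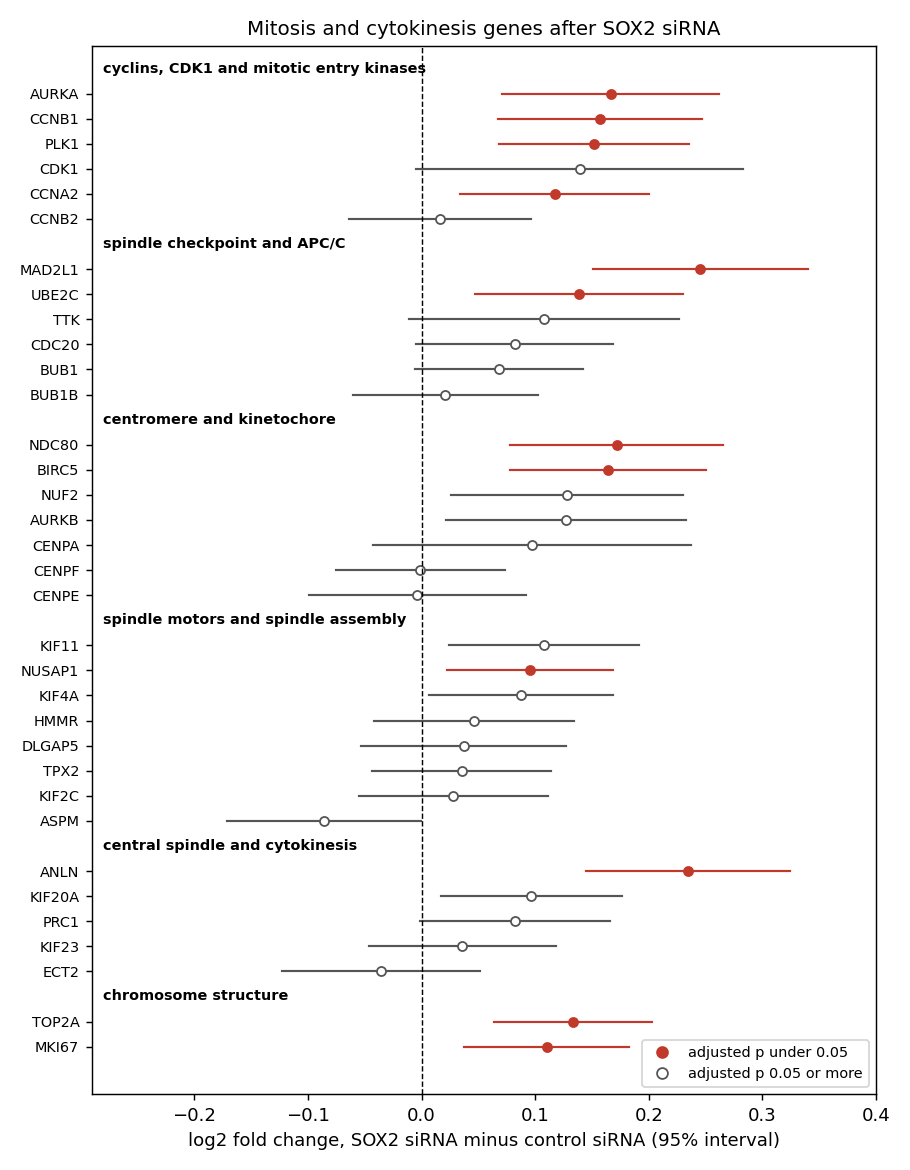
Log2 fold change of each of the 34 genes (SOX2 siRNA minus control siRNA, n = 3 libraries each) with its 95% interval from the edgeR fit, grouped by role. Filled red points mark the 12 genes with an adjusted p under 0.05, all to the right of 0, and the 22 open points lie between -0.09 and 0.14.

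The count of calls depended on single libraries. It was 4 without SOX2 siRNA replicate 2 and 6 without SOX2 siRNA replicate 3, against 15 without SOX2 siRNA replicate 1 and 8 without control replicate 3. MAD2L1, ANLN and PLK1 were called in each of the 6 fits that left out 1 library, with adjusted p no higher than 0.00498, 0.00505 and 0.0417 (edgeR). BIRC5, NDC80 and TOP2A lost their calls without SOX2 siRNA replicate 2 alone (edgeR adjusted p = 0.0559, 0.0641 and 0.0539), AURKA without SOX2 siRNA replicate 3 alone (edgeR adjusted p = 0.0609), and CCNB1 without either of these (edgeR adjusted p up to 0.0594). UBE2C lost its call in 4 of the 6 fits, without control replicate 2 or 3 or SOX2 siRNA replicate 2 or 3 (edgeR adjusted p up to 0.149). MKI67 lost its call in 4, without control replicate 1 or 3 or SOX2 siRNA replicate 2 or 3 (edgeR adjusted p up to 0.141). CCNA2 was called in 1 of the 6, that without SOX2 siRNA replicate 1 (edgeR adjusted p up to 0.166 in the others), and NUSAP1 in none (0.0505 to 0.244). Offsets for GC content and length gave 16 calls. With them PLK1 lost its call, and CDK1, TTK, NUF2, KIF11 and KIF20A gained one, with log2 fold changes of 0.22, 0.16, 0.20, 0.17 and 0.13 (edgeR adjusted p = 0.028, 0.0312, 0.00405, 0.00466 and 0.0325).

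Among the cyclins and kinases of mitotic entry, 4 of 6 rose and 2 did not pass the test. CCNB1, the cyclin that activates CDK1 at mitotic entry, was at 209, 210.1 and 216 CPM in control libraries 1 to 3 and at 220.2, 239 and 249 CPM in libraries 1 to 3 of the SOX2 siRNA group. Every SOX2 siRNA library lay above every control library, for a log2 fold change of 0.16 (SE 0.042; edgeR adjusted p = 0.010). PLK1, a kinase needed for centrosome maturation and spindle assembly, stood at 98.9, 93.4 and 97.8 CPM in control and at 106, 105 and 111 CPM after SOX2 siRNA. These groups did not overlap either, and the log2 fold change was 0.15 (SE 0.040; edgeR adjusted p = 0.0078). PLK1 was the richest but one in G and C of the 34 transcripts, at 57.3%, and with offsets for GC content and length its adjusted p was 0.102 (edgeR, log2 fold change 0.11).

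AURKA, the Aurora kinase of the centrosomes and spindle poles, had 65.4, 63.2 and 65.9 CPM in control and 69.2, 72.6 and 76.6 CPM after SOX2 siRNA, without overlap (log2 fold change 0.17, SE 0.045; edgeR adjusted p = 0.0105). CCNA2, a cyclin of S phase and G2, had 136, 139 and 138 CPM in control and 141, 152 and 154 CPM after SOX2 siRNA. Its lowest SOX2 siRNA library was 2.59 CPM above its highest control library, and the log2 fold change was 0.12 (SE 0.039; edgeR adjusted p = 0.0338). CDK1, the kinase itself, did not pass the test in this fit, though it did with the GC and length offsets. It stood at 144, 146 and 154 CPM in control and 147, 163 and 178 CPM after SOX2 siRNA, so that SOX2 siRNA library 1 lay within the control range and library 3 well above it (log2 fold change 0.14, SE 0.064; edgeR adjusted p = 0.145). CCNB2, the second B-type cyclin, had nearly the same mean in both groups, at 102 ± 1.07 and 103 ± 2.87 CPM (SD, n = 3), with a 95% interval of the log2 fold change from -0.064 to 0.097. CCNB1 and CCNB2 thus had fold changes of 0.16 and 0.016 on the log2 scale; the difference between them was not tested.

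Of the spindle checkpoint and APC/C genes, 2 of 6 rose. MAD2L1, the MAD2 protein that binds and restrains CDC20, had the largest fold change of the 34. Its level was 116, 121 and 125 CPM in control and 135, 143 and 151 CPM after SOX2 siRNA. The groups were apart by 9.79 CPM, and the log2 fold change was 0.25 (SE 0.045; edgeR adjusted p = 0.000472). UBE2C, the ubiquitin-conjugating enzyme that works with the APC/C, had 75.3, 70.2 and 73.5 CPM in control and 77.5, 83.1 and 80.7 CPM after SOX2 siRNA (log2 fold change 0.14, SE 0.043; edgeR adjusted p = 0.0236). The lowest SOX2 siRNA library exceeded the highest control library by 2.19 CPM.

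The checkpoint kinases BUB1 and TTK and the checkpoint protein BUB1B did not pass the test, with log2 fold changes of 0.068, 0.11 and 0.021. CDC20, which activates the APC/C and is the target of the checkpoint, had a log2 fold change of 0.082 (edgeR adjusted p = 0.158). A pseudogene copy, CDC20P1, held 111 to 178 counts per library, against 2535 or more for CDC20. How reads that match both were assigned is not given in the sources used here, so these counts do not bound an exchange of reads.

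Among 7 centromere and kinetochore genes, 2 rose. NDC80, a subunit of the complex that binds microtubules at the kinetochore, was at 64.9, 67.2 and 69.2 CPM in control and 72.2, 78.1 and 76.4 CPM after SOX2 siRNA, with no overlap (log2 fold change 0.17, SE 0.044; edgeR adjusted p = 0.0074). BIRC5 (survivin), of the chromosomal passenger complex, was tightly grouped in control at 118, 117 and 116 CPM and stood at 124, 135 and 135 CPM after SOX2 siRNA. Each SOX2 siRNA library was above that range, and the log2 fold change was 0.16 (SE 0.041; edgeR adjusted p = 0.0057).

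AURKB, the kinase of the same passenger complex, had a similar estimate to BIRC5 and did not pass the test. Its libraries were at 62.2, 60.9 and 57.5 CPM in control and 61.4, 66.7 and 69.2 CPM after SOX2 siRNA, with SOX2 siRNA library 1 inside the control range (log2 fold change 0.13, SE 0.050; edgeR adjusted p = 0.0692). NUF2, the partner of NDC80 in its complex, just missed the threshold, with a log2 fold change of 0.13 (edgeR adjusted p = 0.0582). Its groups did not overlap, but were apart by only 0.122 CPM. CENPA, the histone H3 variant of centromeres, was the least counted of the 34 and had a log2 fold change of 0.097 with an interval from -0.042 to 0.24. The long coiled-coil proteins of the outer kinetochore, the kinesin CENPE and CENPF, had estimates near 0, at -0.0039 and -0.0013, with intervals from -0.099 to 0.092 and from -0.076 to 0.073.

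Of 8 spindle motors and assembly factors, 1 rose. NUSAP1, which bundles spindle microtubules near chromosomes, had 172, 175 and 174 CPM in control and 183, 189.8 and 184 CPM after SOX2 siRNA. The groups did not overlap, but the call was marginal (log2 fold change 0.096, SE 0.035; edgeR adjusted p = 0.0478) and was lost in each of the 6 fits that left out 1 library. KIF11, the motor that pushes spindle poles apart, lay just on the other side of the threshold (log2 fold change 0.11; edgeR adjusted p = 0.0512). KIF4A, a chromosome-arm motor, had a log2 fold change of 0.088 without overlap of the groups (edgeR adjusted p = 0.103). The microtubule depolymerase KIF2C and the spindle proteins TPX2, HMMR and DLGAP5 had log2 fold changes between 0.028 and 0.046.

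ASPM, a spindle pole protein, had the lowest fold change of the 34. It stood at 275, 305 and 282 CPM in control and 263, 273 and 276 CPM after SOX2 siRNA, with overlap through control library 1 (log2 fold change -0.086, SE 0.040; edgeR adjusted p = 0.132). With offsets for GC content and length the value was 0.0057, and under upper-quartile scaling ASPM was called lower. ASPM has one of the longest transcripts of the set, 10887 bases, of which 37.1% are G or C.

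Of 5 central spindle and cytokinesis genes, 1 rose. ANLN (anillin), the scaffold that links the contractile ring to the membrane, was at 269, 282 and 279.6 CPM in control and 305, 327 and 345 CPM after SOX2 siRNA. The groups were apart by 22.7 CPM, with a log2 fold change of 0.23 (SE 0.043; edgeR adjusted p = 0.000488). The centralspindlin motor KIF23, the bundling protein PRC1 and the motor KIF20A had log2 fold changes of 0.036, 0.082 and 0.097 and did not pass the test, though the libraries of KIF20A did not overlap. ECT2, the exchange factor that activates RhoA at the cleavage site, had a log2 fold change of -0.036 with an interval from -0.12 to 0.051. Anillin and ECT2, which act at the same ring, thus had estimates of opposite sign, of which only that of ANLN passed the test; the difference was not tested.

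Both genes of chromosome structure rose. TOP2A, the topoisomerase that untangles sister chromatids, had 672, 704 and 689 CPM in control and 744, 765 and 756 CPM after SOX2 siRNA, without overlap (log2 fold change 0.13, SE 0.033; edgeR adjusted p = 0.00553). MKI67, the Ki-67 protein that coats mitotic chromosomes and is widely used to stain proliferating cells, had 544, 572 and 549 CPM in control and 583, 608 and 606 CPM after SOX2 siRNA. Its groups were apart by 11.1 CPM, and the log2 fold change was 0.11 (SE 0.034; edgeR adjusted p = 0.0231).

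Within each group the genes tended to be high or low in the same libraries. SOX2 siRNA library 1 was the lowest of the 3 SOX2 siRNA libraries for 32 of the 34 genes, and library 3 was the highest for 19 and library 2 for 15. This was not particular to the 34. In the 8 other lists described below, SOX2 siRNA library 1 was lowest in its group for many genes too. The share ran from 10 of 20 other cytokinesis genes to 31 of 34 other kinetochore and checkpoint genes, with 28 of 33 DNA replication genes. The share over all tested genes was not computed. In control, library 1 was the lowest for 19 of the 34 and library 2 the highest for 19. Over all 6 libraries, SOX2 siRNA libraries 2 and 3 held the highest value for 29 of the 34 genes and the lowest for none. Control library 1 held the lowest value for 15.

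**Figure D2:**
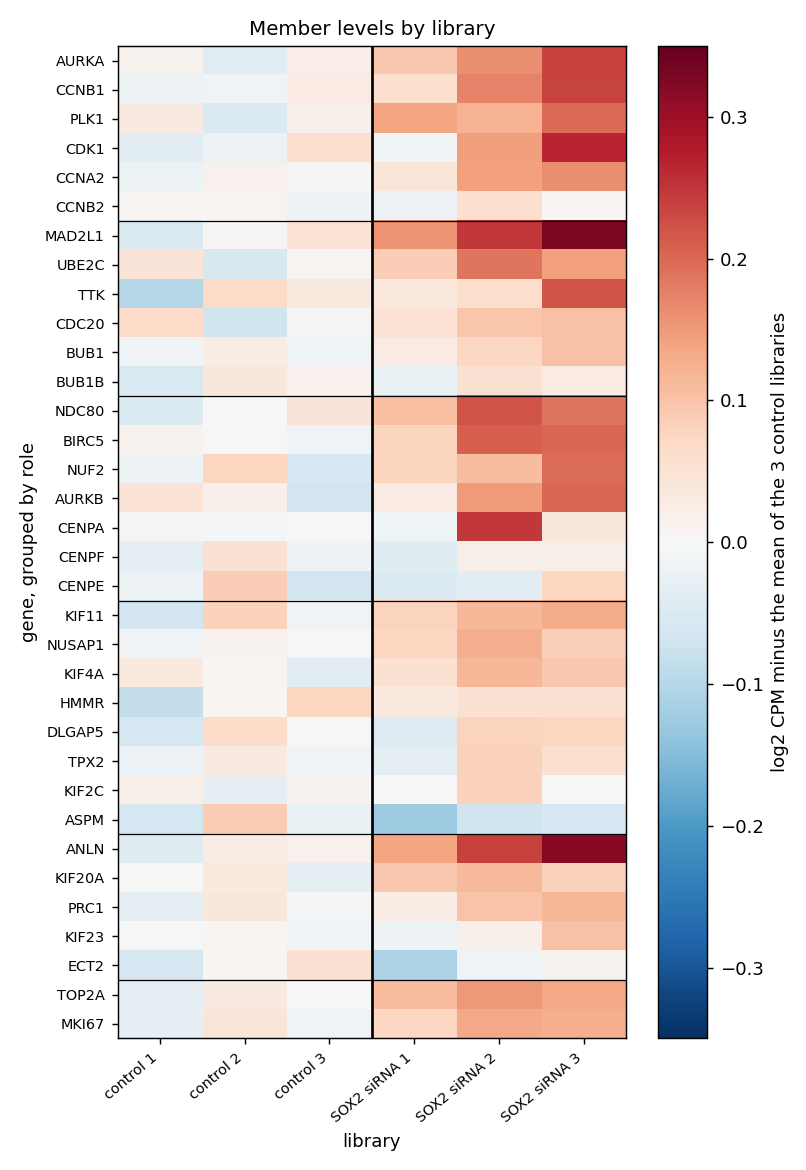
Level of each of the 34 genes in each library, as log2 CPM minus the mean of the 3 control libraries, with genes grouped by role and the vertical line parting control from SOX2 siRNA libraries. SOX2 siRNA libraries 2 and 3 are red for most genes, library 1 is paler, and ASPM is blue in all 3.

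Summed over the 34 genes, expression was 5967, 6205 and 6078 CPM in control libraries and 6223, 6530 and 6600 CPM after SOX2 siRNA. The group means were 6083 ± 119 and 6451 ± 200 CPM (SD, n = 3), 6.04% higher after SOX2 siRNA; SOX2 siRNA library 1 lay only just above control library 2. By role, the difference in summed CPM was 9.31% for cyclins and entry kinases, 8.88% for chromosome structure, 7.65% for central spindle and cytokinesis, 7.44% for the checkpoint and APC/C, 3.16% for centromere and kinetochore and 2.47% for spindle motors and assembly. No test was made of these sums, in which abundant genes weigh most.

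Per transcript length, all 34 genes were expressed. In control libraries they ran from 45.05 ± 0.299 TPM (counts per transcript length, scaled to the same total in each library) for CENPA to 319.9 ± 6.25 TPM for TOP2A (SD, n = 3), with a median of 112 TPM. After TOP2A came CCNB1 at 261 ± 5.28 TPM, UBE2C at 214 ± 8.39 TPM and CDK1 at 203 ± 7.64 TPM, and just above CENPA came CENPE at 48.2 ± 2.41 TPM. These levels rest on the longest coding transcript of each gene in GENCODE 29, so a gene that uses a shorter form, as is possible for MAD2L1 with a listed length of 5468 bases, would be understated.

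DNA replication genes of S phase, a list of 33, gave a different count from the mitotic genes. Of these 3 rose, 9 fell and 21 did not pass the test, with a median log2 fold change of -0.037. The share called was 36.4%, against 28.2% of all tested genes and 37.0% of the abundant ones, so near the background. By direction, 14.8% of all tested genes rose and 13.4% fell, and 20.6% and 16.4% of the abundant ones. DTL, a substrate receptor of the ligase that degrades CDT1, fell by 0.37 on the log2 scale (edgeR adjusted p = 5.98e-07). UHRF1, which maintains DNA methylation at replication forks, rose by 0.23 (edgeR adjusted p = 0.000251). SOX2 siRNA library 1 held the lowest value of all 6 libraries for 21 of the 33 genes; without it the median was -0.00053, with 5 genes higher and 7 lower. The ratio of summed CPM of the 34 mitotic genes to that of the 33 replication genes was 1.11, 1.163 and 1.155 in control and 1.265, 1.255 and 1.236 in SOX2 siRNA libraries, with means of 1.14 ± 0.028 and 1.25 ± 0.015 (SD, n = 3). The groups did not overlap in this ratio, and SOX2 siRNA library 1, lowest of its group in both sums, had the highest ratio. The difference between the lists was not tested.

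**Figure D3:**
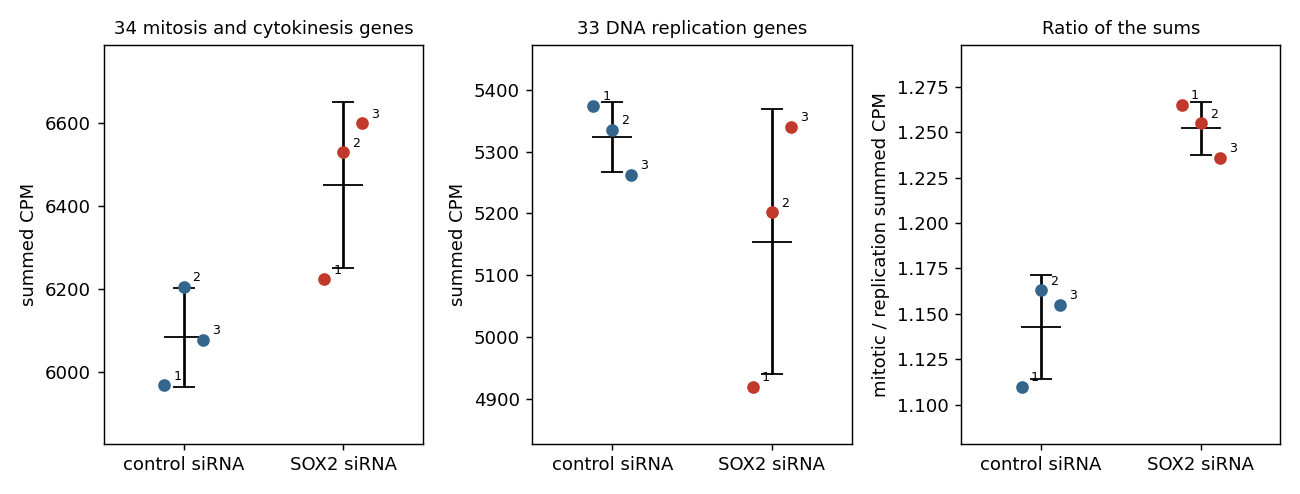
Summed CPM of the 34 mitosis and cytokinesis genes (left), of 33 DNA replication genes (middle) and their ratio (right) by library; points are libraries labelled by replicate number, and bars are the mean and SD of 3; axes do not start at 0. SOX2 siRNA library 1 is lowest of its group in both sums, while the ratios of 1.236 to 1.265 all lie above the control ratios of 1.11 to 1.163.

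A further 7 lists held 163 other genes of mitosis and its control, none of them among the 34. Of these, 38 rose, 15 fell and 110 did not pass the test (32.5% called, against 28.2% of all tested genes and 37.0% of the abundant ones, so near the background), and the median log2 fold change was 0.037. The share called was 40% each for entry and exit control, for cohesin, condensin and passenger genes, and for other cytokinesis. It was 35.7% for motors and spindle proteins, 33.3% for regulators, 26.5% for kinetochore and checkpoint and 11.8% for the APC/C. The 163 genes held falls as well as rises, unlike the 34, but this was not so in every list. The APC/C list held 2 rises and no falls. Entry and exit control and the regulators held 1 fall each. The difference in these counts between the 163 genes and the 34 was not tested.

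Among 20 genes of entry and exit control 7 rose and 1 fell. The gene that fell was WEE1, the kinase that holds CDK1 inactive, from 73.0 ± 2.30 to 58.6 ± 0.711 CPM (SD, n = 3), a log2 difference of -0.31 (edgeR adjusted p = 1.98e-05). CDC25B, a phosphatase that removes the marks WEE1 places, and CKS2, a small subunit of CDK1 complexes, rose by 0.18 and 0.28 on the log2 scale; CDC25B did not pass with GC and length offsets (edgeR adjusted p = 0.118). Of 17 APC/C genes 2 rose and none fell: CDC27, a core subunit, by 0.26, and UBE2S, the enzyme that extends ubiquitin chains for the APC/C, by 0.29, beside the 0.14 of UBE2C. The APC/C count was 5 under upper-quartile scaling and 4 with total counts or without control replicate 1. ANAPC1, ANAPC7, ANAPC15, ANAPC16 and CDC16 did not pass the test, though each had all SOX2 siRNA libraries below all control libraries (log2 fold changes from -0.12 to -0.069). These were 5 of the 17, against 20.3% of all tested genes. Another 3 had all SOX2 siRNA libraries above all control libraries, against 21.5% of all tested genes. They were CDC27, UBE2S and ANAPC5, which did not pass the test (log2 fold change 0.094, edgeR adjusted p = 0.0527). The 8 calls of entry and exit control were 5 without SOX2 siRNA replicate 2 or 3.

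Among 34 other kinetochore and checkpoint genes, 6 rose and 3 fell. SKA2, of the complex that couples kinetochores to microtubule ends, rose by 0.37, and KNL1, the kinetochore platform for BUB1, rose by 0.19. MAD1L1, which recruits MAD2 to unattached kinetochores, went from 19.5 ± 0.807 to 16.1 ± 1.04 CPM (SD, n = 3), a log2 difference of -0.28 (edgeR adjusted p = 0.00482), opposite to MAD2L1. Of 20 genes of cohesin, condensin and the passenger complex, 5 rose and 3 fell, with INCENP, the scaffold that holds AURKB and BIRC5, higher by 0.20 (edgeR adjusted p = 0.0727 with GC and length offsets), the cohesin subunit STAG2 by 0.20, and CDCA2, a phosphatase-targeting protein of mitotic chromosomes, by 0.27. The 9 kinetochore and checkpoint calls were 4 without control replicate 2 or 3 or SOX2 siRNA replicate 2. The 8 calls of the cohesin, condensin and passenger list were 3 with GC and length offsets and 5 without control replicate 2 or SOX2 siRNA replicate 1.

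Among 28 other motors and spindle proteins 6 rose and 4 fell. SPAG5 (astrin), which acts at spindle poles and kinetochores, went from 114, 116 and 115 CPM in control to 77.5, 78.7 and 78.0 CPM after SOX2 siRNA, a log2 difference of -0.56 (SE 0.037; edgeR adjusted p = 3.42e-09). Its partner KNSTRN rose by 0.21, and the centrosome protein CDK5RAP2 fell by 0.15. The 10 calls of this list were 5 with GC and length offsets, 6 with DESeq2, and 3 to 6 without control replicate 2 or 3 or SOX2 siRNA replicate 2 or 3. Of 20 other cytokinesis genes, 5 rose and 3 fell: CEP55, which recruits the abscission machinery to the midbody, rose by 0.32, SEPTIN9 by 0.14, and the kinesin gene KIF13A fell by 0.17.

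The regulators that control this programme, 24 genes, held 7 that rose and 1 that fell. The share called, 33.3%, was near the background of 28.2% of all tested genes and 37.0% of the abundant ones. FOXM1, an activator of G2 and mitotic genes, rose from 130.1 ± 3.56 to 143 ± 2.46 CPM (SD, n = 3), a log2 difference of 0.14 (edgeR adjusted p = 0.00986). FOXM1 did not pass without SOX2 siRNA replicate 2 (edgeR adjusted p = 0.0754) or with GC and length offsets (0.155). MYBL2, the other activator, did not pass the test, at 183 ± 5.26 and 178 ± 6.34 CPM (log2 fold change -0.036; edgeR adjusted p = 0.542). NFYA, the DNA-binding regulatory subunit of NF-Y, rose by 0.33 and E2F1, an activator of S-phase genes, by 0.25 (edgeR adjusted p = 0.0544 with GC and length offsets), while TFDP2, a dimer partner of E2F proteins, fell by 0.20. CDKN1A (p21), an inhibitor of cyclin-dependent kinases whose induction is known to lower mitotic genes, rose from 14.1 ± 0.344 to 24.8 ± 2.80 CPM (SD, n = 3), a log2 difference of 0.81 (edgeR adjusted p = 4.74e-07). The part of any of these regulators in the fold changes of the 34 genes was not tested.

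**Figure D4:**
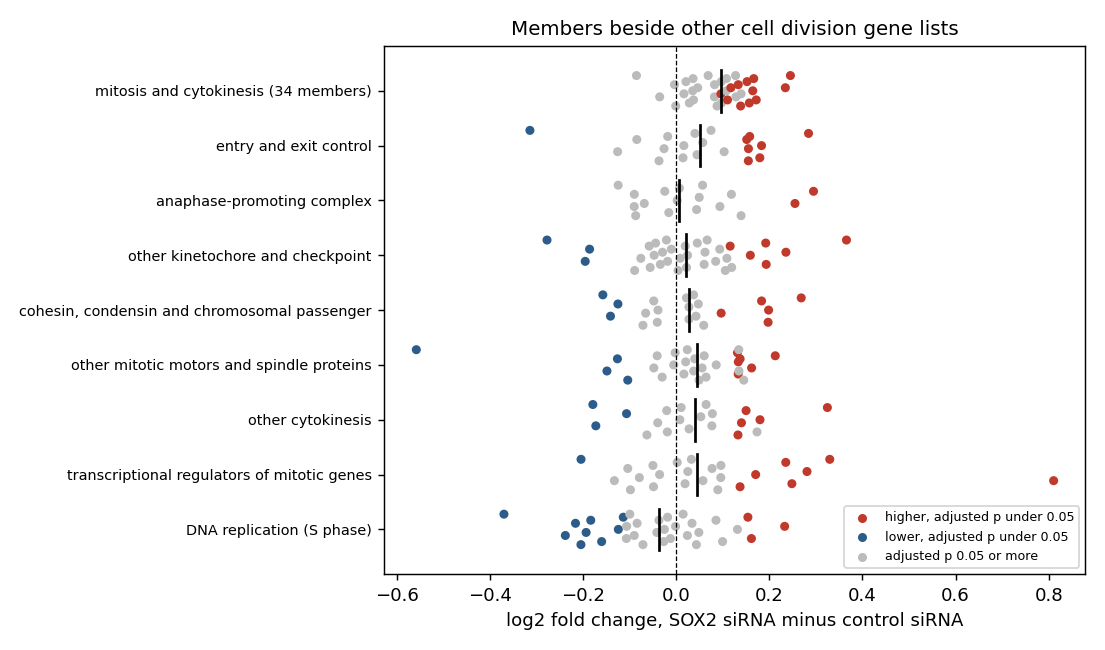
Log2 fold changes (SOX2 siRNA minus control siRNA) of the 34 mitosis and cytokinesis genes and of the genes in 8 other lists; each point is a gene, red for higher and blue for lower with an adjusted p under 0.05, grey otherwise, and black bars are medians (vertical offsets carry no value). The 34 genes lie between -0.086 and 0.25 with no blue point, while DNA replication genes have 9 blue and 3 red points.

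Some of the 34 share exon positions with other genes in GENCODE 29; the annotation behind the counts may differ. Opposite-strand exons overlap CCNA2, PLK1, MAD2L1, NUF2, KIF2C, KIF4A, HMMR, KIF20A, KIF23, PRC1 and ANLN, and whether counting used strand is not given in the sources used here. Exons of BUB1B, CENPA, NUSAP1 and PRC1 overlap those of a gene on the same strand. KIF4B, a near-identical copy of KIF4A, had 9 to 17 counts per library, against 2584 or more for KIF4A.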

How the data were processed

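The data are raw counts per gene symbol, 1 column per library, as deposited by the authors; the values are whole numbers with unequal totals. The submitters' processing notes name bcl2fastq 2.20.0, STAR 2.7.3a, Salmon 0.14.1, DESeq2 1.28.1 and the build GRCh38.p13, without saying what each was used for; strand setting and annotation are not given in the sources used here. RNA was extracted with Trizol and libraries made with a KAPA mRNA HyperPrep kit, per the labels' protocols. Columns were matched to libraries by their description label.

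Genes were kept by edgeR's filterByExpr (minimum count 10), scaled by TMM (factors 0.991 to 1.01) and tested in 1 fit over all 17592 genes with edgeR 4.0.16 in R 4.3.3 (glmQLFit, robust=TRUE; Benjamini-Hochberg threshold 0.05); 95% intervals use the fit's SE. Exact permutation of 3 against 3 libraries cannot give p below 0.1 and was not used. Alternatives included DESeq2 1.42.0 and limma 3.58.1. TPM and GC offsets used GENCODE 29 (96.3% of tested genes matched by symbol). In simulated data for this comparison (17316 genes tested), 200 genes were changed, against 4964 called in the measured data. There, 6% of 1.1-fold, 62% of 1.2-fold and 88% of 1.5-fold changes were recovered, and 3.85% of calls were false. The simulation thus differs from the measured data in the share of genes changed.

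The members and lists were chosen with earlier results of these data known. Every member is named; values by library are given for those called and for CDK1, CCNB1, PLK1, AURKB and MKI67. From each other list up to 3 called genes are named by smallest p, with FOXM1, MYBL2, CDKN1A, E2F1 and SOX2, by fold change or group means; SPAG5 is given by library, and APC/C genes that were not called and markers were named after their values were seen. ASPM is also given by library, chosen after its values were seen. One gene that this rule names is not reported here. The 8 printed promoters were chosen after their genes' values were seen.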

Additional observations from a re-analysis of the deposited data

How the results depend on the processing

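The number of the 34 genes called ranged from 4 to 15 over the 6 fits that left out 1 library, and was 20 with GC and length offsets together with the replicate block, against 12; in each of these fits all calls were higher. The other alternatives gave 10 to 16 higher calls, and 1 lower call (ASPM, upper-quartile scaling). Over the leave-one-out fits the calls among the 196 genes of the other lists ranged from 42 to 62, against 65; the fewest came without SOX2 siRNA replicate 2. Fewer libraries were tested in these fits; otherwise the cause was not tested. Whether the replicate numbers pair the libraries was not settled. Over all tested genes, deviations of same-numbered libraries from their group mean correlated at 0.0868, -0.0377 and -0.0311. Those of differently numbered libraries correlated between -0.12 and 0.155. With 3 libraries per group these values cannot exclude pairing. With the replicate block 14 of the 34 were called, the same 12 with CDK1 and KIF11 (edgeR adjusted p = 0.0132 and 0.0215). Upper-quartile scaling moved the share of higher calls over all genes from 52.4% to 45.8% and the median of the 34 from 0.097 to 0.077.

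Estimates near 0, and that of ASPM (-0.086), changed sign in some fits, and none was called in a fit where its sign changed. CCNB2 was -0.0037 with upper-quartile scaling. CENPE and CENPF were 0.0028 and 0.0054 with no filter beyond 1 count. With GC and length offsets CENPE, CENPF, ASPM and ECT2 were 0.077, 0.080, 0.0057 and 0.021, and with the replicate block added 0.077, 0.079, 0.0052 and 0.020. Leaving out 1 library in turn gave BUB1B from -0.0059 to 0.040, CENPE from -0.046 to 0.039, CENPF from -0.018 to 0.025, CCNB2 from -0.0085 to 0.030, KIF2C from -0.0014 to 0.039 and KIF23 from -0.0015 to 0.058. MAD2L1 and ANLN were called under all 17 alternatives, and PLK1 under 15, not with the GC and length offsets. MYBL2 was called lower with those offsets and the replicate block (-0.12, edgeR adjusted p = 0.0199). SOX2 stayed between -2.32 and -2.25 on the log2 scale. Each of the 34 had at least 611 counts in every library. Changes near 1.1-fold were mostly missed in simulated data. Only 200 genes, not matched in abundance to the 34, were changed there, against 4964 called in the measured data. That recovery may not carry over to the genes that did not pass the test. The 95% intervals, such as -0.076 to 0.073 for CENPF and -0.0045 to 0.28 for CDK1, hold for the main fit and its scaling only. With GC and length offsets CENPF, at 0.080, lay outside its interval.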
